A study of Mus musculus with 15 samples.

Results

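Loss of both floxed copies of Apc was compared with the milder genotype that keeps a 1638N copy, in cultured blood stem and progenitor cells of the mouse. The comparison used 6 of the 15 samples of the study, 1 array each: 3 of genotype 15lox/15lox (titled KO) and 3 of genotype 15lox/1638N (titled N1638), chosen by the genotype in the labels. All groups were on the C57BL6 background. The starting cells were LSK cells from bone marrow, which lack lineage markers and carry Sca1 and Kit. Every group, wild type included, received a retrovirus carrying Cre recombinase and GFP, so that the 15lox copies could be cut ex vivo. The cells had Flt3 ligand, thrombopoietin and stem cell factor in StemSpan medium, and GFP-positive cells were sorted for RNA, with over 10000 cells a sample. In 15lox/1638N only the floxed copy can be removed, and the 1638N copy remains, a hypomorphic allele known for making very little of a shortened protein. The other arrays, 3 of 15lox/1572T (another hypomorphic allele) and 6 of wild type (wt/wt), serve here as reference levels only, and no wild-type array entered the comparison. The sources used here give neither the age nor the sex of the animals. They do not say either that samples of a group came from separate animals, so the p-values measure only how far these samples spread, which may be technical.

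Apc is the scaffold of the destruction complex, in which Axin, the kinases Gsk3 and casein kinase 1 and the ubiquitin ligase adaptor Btrc mark beta-catenin for degradation. When Apc fails, beta-catenin accumulates, enters the nucleus and acts with Lef/Tcf factors on target genes, among them inhibitors of the pathway itself such as Axin2, Nkd1 and Notum. The level of Wnt signalling is known to matter in blood stem cells, and the series was built to ask what different levels of it do.

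Of the genes described below, 36 were higher and 2 lower in 15lox/15lox. The RefSeq promoter table (assembly GRCm38.p6) held 29 of the 36 and gave 41 windows of 250 bases before to 50 bases after an annotated start. The Lef/Tcf motif was searched as CTTTGAT or CTTTGAA on both strands. It lay in 2 of the 41 windows (4.88%), against 2842 of 32851 windows (8.65%) in the whole table, and in 0 of the 3 windows of the 2 lower genes. The 2 windows are shown because they belong to the receptors Edar and Tnfrsf19, which are described below. Each is the 250 bases before the start, written 5′ to 3′ on the gene's own strand, with the motif in capitals. That of Edar is chr10:58675697-58675946 (minus strand), with the motif at bases 18 to 24 of the stretch. That of Tnfrsf19 is chr14:61037988-61038237 (minus strand), with the motif at bases 49 to 55, written as its reverse complement, and belongs to 1 of its 2 annotated starts.
Edar: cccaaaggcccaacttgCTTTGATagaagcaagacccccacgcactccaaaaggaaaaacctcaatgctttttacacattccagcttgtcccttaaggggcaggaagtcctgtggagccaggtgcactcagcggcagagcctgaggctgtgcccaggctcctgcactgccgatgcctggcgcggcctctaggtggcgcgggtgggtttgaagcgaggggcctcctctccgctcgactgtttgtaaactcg
Tnfrsf19: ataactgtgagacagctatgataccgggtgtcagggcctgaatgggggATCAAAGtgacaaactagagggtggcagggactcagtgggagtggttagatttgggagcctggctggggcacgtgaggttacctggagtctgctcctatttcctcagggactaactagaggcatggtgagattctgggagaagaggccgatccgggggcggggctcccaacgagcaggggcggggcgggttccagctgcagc
A match to these letters is a description of the window and is no evidence of binding.

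Levels are the deposited log2 values of probe sets (groups of short probes that read a transcript), and a difference of 1 is a 2-fold difference. Array medians ran from 6.74 to 6.79 on the 6 arrays, and with 3 arrays a group their number is what limits precision. On the 6 arrays Kit read 11.13 to 11.54, Cd34 13.47 to 13.61, Flt3 12.01 to 12.74 and Ptprc (CD45) 11.95 to 12.79, as the LSK label calls for; Ly6a, which encodes Sca1, was not analysed here. Some defining genes of mature or foreign cells were low: Cd3e of T cells read 4.82 to 5.13, Itgam of myeloid cells 4.78 to 5.30, Ncr1 of NK cells 4.01 to 4.30, Cdh5 of endothelium 4.75 to 5.07 and Alb of liver 5.32 to 5.58. Others were not: Pf4 of megakaryocytes read 13.36 to 13.65, Fcer1a of mast cells and basophils 6.16 to 9.12, Epcam of epithelium 6.39 to 7.33, and Cd14 of monocytes averaged 9.03 in 15lox/15lox and 10.14 in 15lox/1638N. Xist and 3 Y-linked genes divided the arrays by sex: arrays 2 and 3 of 15lox/15lox and array 3 of 15lox/1638N were female-type. The Y-linked genes read 3.67 to 5.61 on the female-type mutant arrays, a guide to how high a gene without transcript can read here. Probe sets differ and this is no upper limit, as Xist read 7.71 to 7.98 on the male-type mutant arrays. Array 3 of 15lox/15lox stood apart from the rest, with a score of -41.7 on the first principal component of the 9 mutant arrays (30.4% of the variance) against -14.9 and -9.7 for its replicates. Pearson's r between arrays was 0.985 to 0.994 within genotypes and 0.982 to 0.995 between 15lox/15lox and 15lox/1638N. Wild-type levels are means of wild-type arrays 4 to 6, because the mean of arrays 1 to 3 lay within 0.05 of theirs at 96.7% of probe sets (23.0% for the 2 genotypes compared), so arrays 1 to 3 look shifted.

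**Figure D1:**
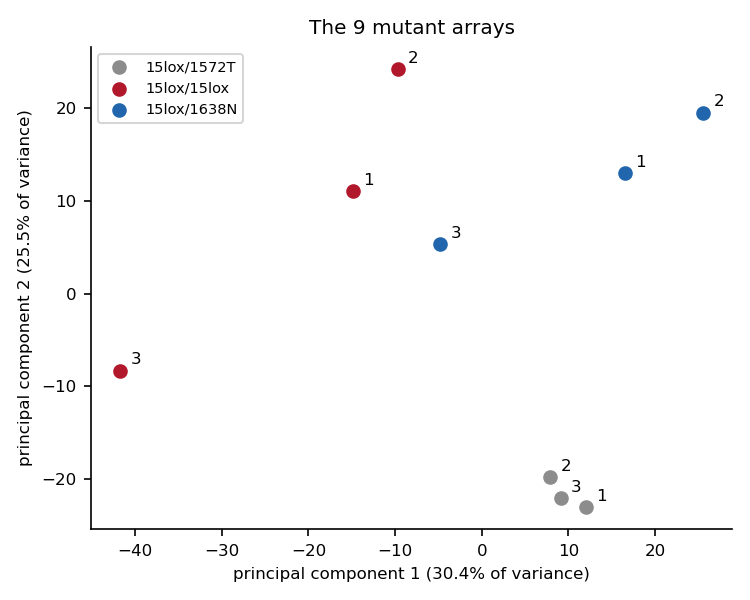
Principal components 1 (horizontal, 30.4% of variance) and 2 (vertical, 25.5%) of the 9 mutant arrays, with each point labelled by its replicate number. The 15lox/15lox arrays lie to the left at -41.7, -14.9 and -9.7 and the 15lox/1638N arrays at -4.8, 16.5 and 25.5, with array 3 of each genotype the leftmost of its group.

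Apc itself was read by 4 probe sets, and they did not move together. Probe set 1420956_at read 5.58, 6.10 and 5.69 in 15lox/15lox and 8.47, 8.67 and 8.52 in 15lox/1638N. The groups stood far apart, and 15lox/15lox was lower by a log2 difference of -2.77 ± 0.15 (SE; adjusted p = 0.00114 by limma over 45101 probe sets). Probe set 1420957_at had 4.92, 5.36 and 4.90 against 7.67, 8.03 and 7.24, a difference of -2.59 ± 0.25 (adjusted p = 0.0265). These were 2 of the 22 probe sets called (0.0488% of all), and the only 2 called lower (0.00443%); without any single array of either genotype except 15lox/1638N array 3, 1 of the 2 was called. The third, 1450056_at, differed by -0.90 (adjusted p = 0.187). The fourth, 1435543_at, which has the highest mean and stands for Apc among genes, read 10.46, 10.23 and 10.66 against 9.84, 9.82 and 9.91, and its difference of 0.59 ± 0.13 missed the threshold (adjusted p = 0.203 over 18194 genes). The sources used here do not place the probe sets relative to the part that Cre removes.

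Across genes, the genotypes were separated by a short list that was almost all higher with full Apc loss. limma with Benjamini-Hochberg adjustment called 38 of 18194 genes (0.209%) at an adjusted p under 0.05, of which 36 were higher (0.198%) and 2 lower (0.0110%) in 15lox/15lox. The higher genes differed by 0.72 to 2.80 on the log2 scale; 32 of the 36 exceeded 2-fold, 11 exceeded 4-fold, and neither lower gene reached 2-fold. In all 38 the 3 arrays of each genotype did not overlap, which was also so for 1321 genes higher (7.26%) and 1396 lower (7.67%) over the whole table. The median difference of all genes was -0.01, and 1617 genes had an unadjusted p under 0.05, 1028 of them higher. The list's length depended on single arrays. It held 2, 7 and 8 genes without 15lox/15lox array 1, 2 or 3, then 0, 0 and 76 without 15lox/1638N array 1, 2 or 3. Without 15lox/1572T array 1, 2 or 3, which enter only through the shared spread, it held 4, 0 and 18. All 38 kept their direction in each of those fits, which the lack of overlap between arrays fixed in advance. With the 6 arrays alone 2 genes passed, Gpr155 and Cabyr.

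**Figure D2:**
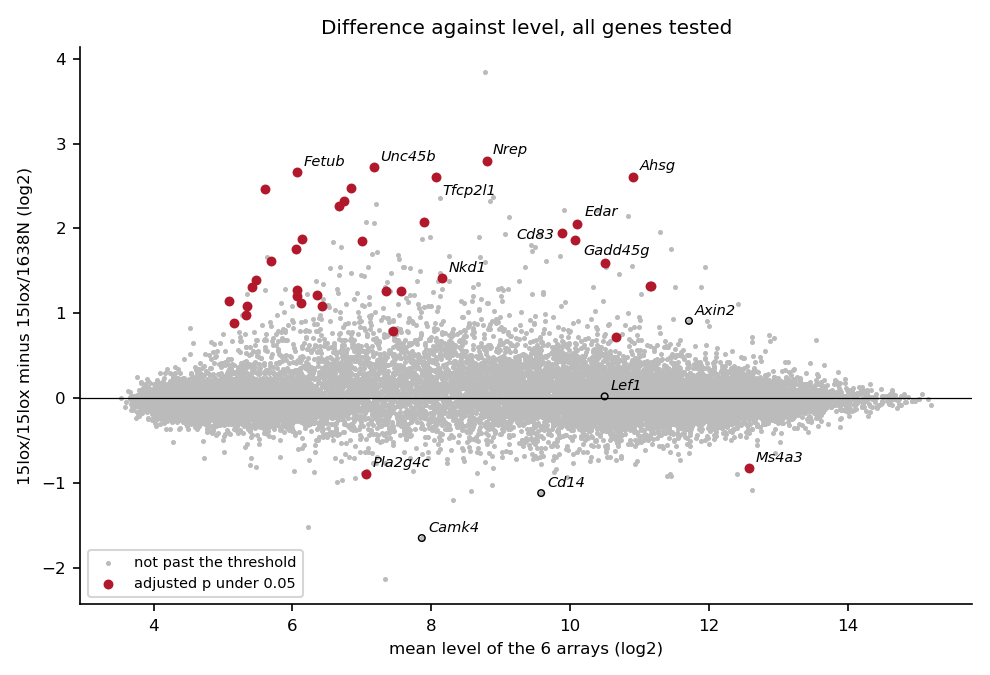
Each point is a gene: the mean level of the 6 arrays (log2, horizontal) and the difference 15lox/15lox minus 15lox/1638N (log2, vertical), with the 38 genes at an adjusted p under 0.05 in red and some named genes that missed it ringed. The red points lie between 0.72 and 2.80 above 0, apart from Ms4a3 and Pla2g4c below it.

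The level in 15lox/1638N bounds what a fold can show. For 17 of the 36 higher genes its mean was at or under 5.61, the highest Y-linked reading on female-type arrays, so that their folds may be lower bounds; 15lox/15lox was that low for 4930556M19Rik alone. Array 3 of 15lox/1638N was the highest of its 3 in 29 of the 36 genes, against 41.4% over all genes. Sex was uneven between the genotypes, and with sex as a covariate 11 genes were called: Atp13a4, Cpb1, Elfn1, Fetub, Fmn1, Gadd45g, Gpr155, Nr3c2, Nrep, Tfcp2l1 and Thsd4. Within each sex all 36 were higher and both lower genes lower in 15lox/15lox. The lack of overlap between arrays fixed this in advance, so it says nothing about sex. The median difference of the 36 was 1.69 between male-type arrays (1 against 2) and 1.18 between female-type arrays (2 against 1), and in 28 genes the female-type difference was the smaller.

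**Figure D3:**
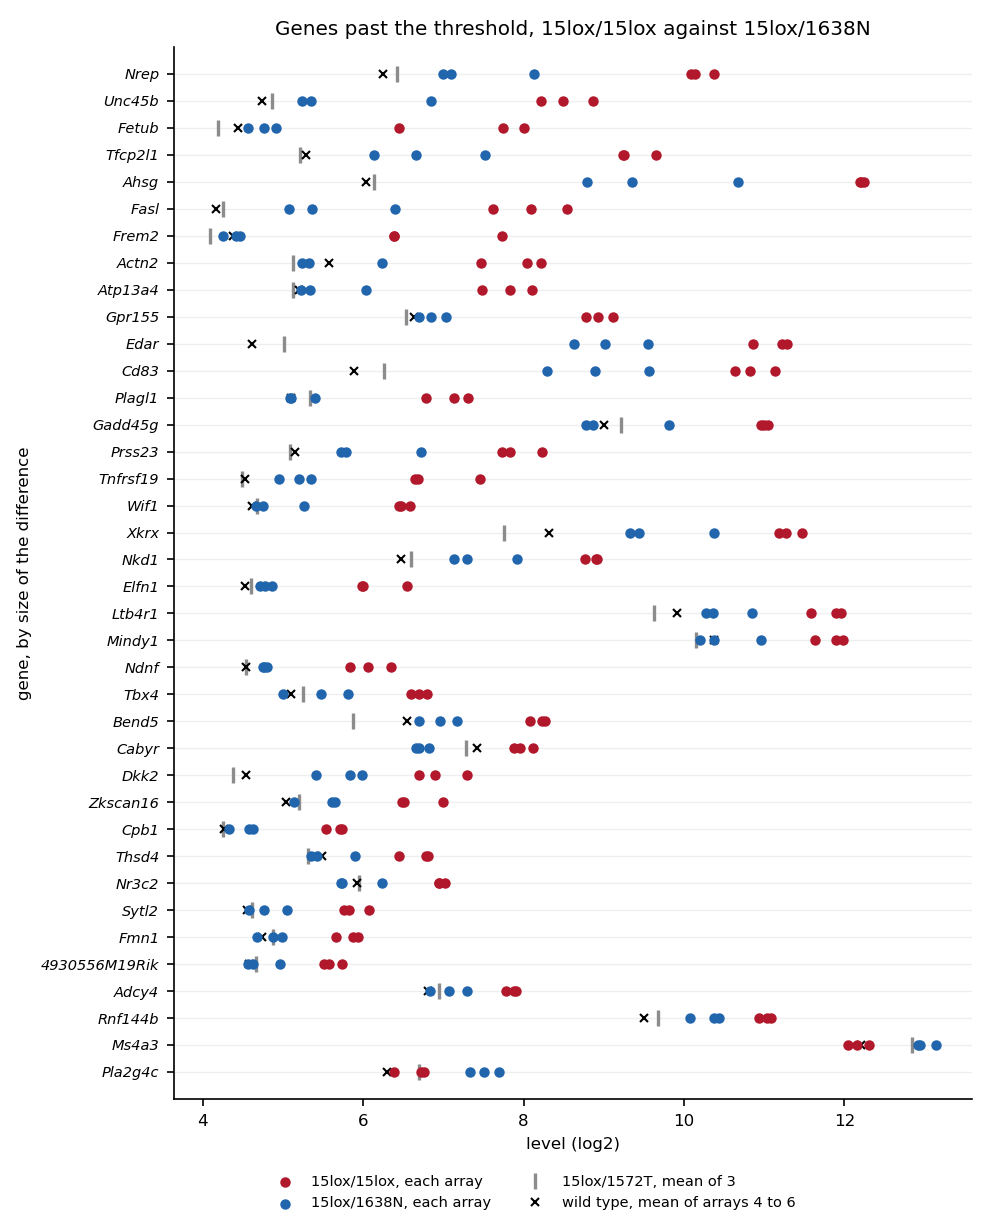
Log2 levels (horizontal) of the 38 genes past the threshold, ordered by difference, with each array of 15lox/15lox in red and of 15lox/1638N in blue, the mean of 15lox/1572T as a grey bar and of wild-type arrays 4 to 6 as a cross. Red and blue points never overlap; in genes such as Edar, Cd83 and Ahsg the blue points lie well above the crosses, and in Plagl1, Frem2 and Ndnf close to them.

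Among the genes of the Wnt pathway, the called genes were inhibitors and targets, while ligands, receptors, the destruction complex and nuclear factors had no called member; with 0.209% of all genes called, a count of 0 in lists of 18 to 24 genes is near that share and is no result about these lists. Of 24 measured Wnt ligands and secretion genes and 18 Frizzled, Lrp and Lgr receptor genes 0 were called, with medians of 0.02 and 0.01. In the first list Wnt11, a noncanonical ligand, had the lowest p, with a difference of 0.39 ± 0.16 (adjusted p = 0.559). In the second it was Lgr5, the R-spondin receptor known as an intestinal stem cell marker, at -0.40 ± 0.13 (unadjusted p = 0.0145, not passing after adjustment by limma). All its readings on the 6 arrays were under 5.61, the highest Y-linked reading on female-type arrays. The destruction complex and its partners (21 measured, 0 called, median 0.02) included Ctnnb1, which encodes beta-catenin itself. Its mRNA averaged 13.88 ± 0.08 in 15lox/15lox and 13.83 ± 0.15 in 15lox/1638N (SD, n = 3 each), a difference of 0.05 with a 95% interval of -0.19 to 0.29. Of 21 Lef/Tcf factors and nuclear cofactors 0 were called (median -0.04); Tle2, a Groucho-type corepressor, came closest at 1.06 ± 0.22 (adjusted p = 0.150). Lef1, a partner of beta-catenin that Wnt signals are known to induce, read 11.22, 10.79 and 9.53 against 10.15, 10.16 and 11.17. The groups overlapped, and the interval of -0.91 to 0.95 leaves room for almost a 2-fold difference either way (difference 0.02, adjusted p = 0.988). The reference levels of Lef1 were 6.26 in 15lox/1572T and 6.57 in wild type. Tcf7 was not analysed here.

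The inhibitors of the pathway were called in 3 of 23 cases, all higher in 15lox/15lox, against 0.198% of all genes called higher. Nkd1, which binds Dishevelled, read 8.90, 8.77 and 8.91 in 15lox/15lox and 7.13, 7.30 and 7.92 in 15lox/1638N, against means of 6.59 in 15lox/1572T and 6.47 in wild type. It was 2.66-fold higher (log2 difference 1.41 ± 0.19 SE, adjusted p = 0.0355). Wif1, a secreted protein that binds Wnt ligands, was close to 6.5 with full loss (6.58, 6.44 and 6.47) and near the floor in 15lox/1638N (4.66, 4.75 and 5.26), a difference of 1.61 ± 0.20 (adjusted p = 0.0292). Dkk2, a secreted ligand of Lrp5 and Lrp6, had 7.30, 6.89 and 6.70 against 5.41, 5.83 and 5.98, with 4.37 and 4.54 in the reference groups (difference 1.22 ± 0.19, adjusted p = 0.0470). The values of Dkk2 thus lay in between in 15lox/1638N, while those of Wif1 there overlapped the 15lox/1572T arrays, which read 4.40 to 5.08.

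Axin2, the standard reporter of the pathway, was at 12.28, 12.29 and 11.94 in 15lox/15lox and 11.17, 11.10 and 11.51 in 15lox/1638N. No array overlapped, but the difference of 0.91 (95% interval 0.13 to 1.69) missed the threshold (adjusted p = 0.535). Both genotypes were far above the means of 8.61 in 15lox/1572T and 7.40 in wild type. The spread shared in the fit takes in 15lox/1572T, where the SD of Axin2 was 0.83. Its SD was 0.20 in 15lox/15lox and 0.22 in 15lox/1638N. With the 6 arrays alone the limma adjusted p of Axin2 was 0.153. Other inhibitors were also higher on all arrays without passing: Notum, an extracellular Wnt deacylase, by 1.35 (adjusted p = 0.299), Dkk1 by 1.09 (adjusted p = 0.385) and Apcdd1 by 0.91 (adjusted p = 0.289). The ubiquitin ligase Rnf43 differed by 1.08 with overlapping arrays (adjusted p = 0.559). The median over the 23 inhibitors was 0.11 (0.03 without 15lox/1638N array 2), and 8 of them (34.8%) were higher without overlap, against 7.26% of all genes. Sfrp5 alone (4.35%) was lower without overlap, against 7.67% of all genes.

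**Figure D4:**
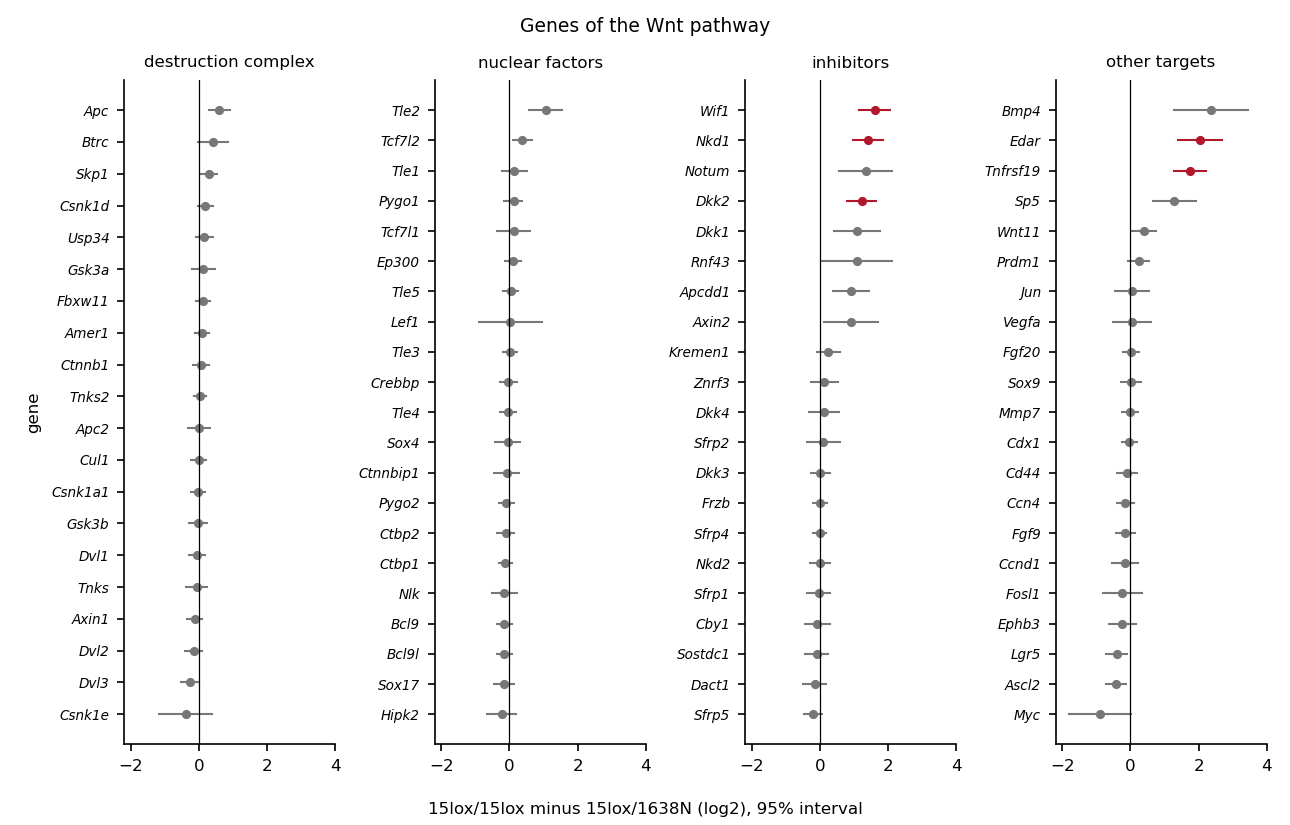
Difference 15lox/15lox minus 15lox/1638N (log2, horizontal) with its 95% interval for each measured gene of the destruction complex, the nuclear factors, the inhibitors and further Wnt targets, each gene drawn once and red where the adjusted p was under 0.05. The red genes are Wif1, Nkd1 and Dkk2 among inhibitors and Edar and Tnfrsf19 among targets, while the intervals of most destruction complex genes cover 0.

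In the wider list of Wnt targets, 4 of 34 measured genes were called, all higher, against 0.198% of all genes. Without overlap 13 (38.2%) were higher, against 7.26% of all genes, and 3 (8.82%) were lower, namely Lgr5, Ascl2 and Ephb3, against 7.67%. The readings of Lgr5, from 4.70 to 5.46 on the 6 arrays, were within the range of genes without transcript. The median of the list was 0.08, or 0.01 without array 2 and 0.24 without array 3 of 15lox/1638N. Ccnd1, the G1 cyclin, differed by -0.16 ± 0.17 (adjusted p = 0.776). Myc, the growth regulator, read 11.77, 11.27 and 9.95 against 11.87, 12.26 and 11.55, a difference of -0.90 (95% interval -1.82 to 0.02; adjusted p = 0.566). Without array 3 of 15lox/15lox, which stood apart in the principal components, the difference of Myc was -0.37. Sp5, a transcription factor induced by Wnt, was higher on all arrays by 1.29 ± 0.28 (adjusted p = 0.180). The 4 called targets were Nkd1, Wif1, Edar and Tnfrsf19, of which Nkd1 and Wif1 are also in the list of inhibitors. All lists here were chosen with earlier results of these data known, so their shares are description only.

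Edar and Tnfrsf19 are both receptors of the TNF family that Wnt signalling is known to induce, and their promoter windows are printed above. Edar, the ectodysplasin receptor of hair and tooth buds, had no more than floor levels in wild type (mean 4.61) and 15lox/1572T (5.01). It was at 8.63, 9.01 and 9.55 in 15lox/1638N and at 11.28, 10.86 and 11.22 in 15lox/15lox, 4.15-fold higher again (log2 difference 2.05 ± 0.29, adjusted p = 0.0399). Tnfrsf19, also called Troy, had 6.68, 7.45 and 6.65 against 5.35, 4.95 and 5.20. Its levels in 15lox/1638N were within the range of genes without transcript, and the difference was 1.76 ± 0.21 (adjusted p = 0.0242). These were the only called members among 22 measured TNF receptor family genes (median 0.13), against 0.198% of all genes called higher. Without overlap 5 of the 22 (22.7%) were higher and 2 (9.09%) lower, against 7.26% and 7.67% of all genes. Fasl, which encodes the ligand of the death receptor Fas, was at 8.09, 7.62 and 8.54 with full loss. It read 5.36, 5.07 and 6.39 in 15lox/1638N, with 4.25 in 15lox/1572T and 4.16 in wild type, so that 15lox/15lox was 5.56-fold higher (2.48 ± 0.34, adjusted p = 0.0371). Its receptor gene Fas differed by 0.51 with overlapping arrays (adjusted p = 0.640). Fasl is best known from T and NK cells. Of 27 measured T lineage genes 20 differed upward (median 0.18, or 0.10 without 15lox/1638N array 2), and the mean level of the list was 7.48 to 7.66 on the 15lox/15lox arrays and 7.14 to 7.56 on the 15lox/1638N arrays. Cd3g, Cd8b1, Cd6 and Zap70 were higher without overlap (14.8%, against 7.26% of all genes), and Ptcra and Camk4 lower. Of 18 NK and innate lymphoid genes 10 differed upward (median 0.03), with mean levels of 7.71 to 7.96 and 7.66 to 7.91. Without overlap 0 of them were higher and 2 were lower, Ncr1 and Eomes (11.1%, against 7.67% of all genes). Il18r1 had the lowest p of that list and averaged 11.15 against 10.20, with overlapping arrays (limma adjusted p = 0.386). Cd3e and Ncr1 had the low levels given above on all 6 arrays. The part of these cells in the level of Fasl was not tested.

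The largest called difference was that of Nrep, which encodes a small protein first described in regenerating neurons. Its arrays read 10.37, 10.09 and 10.14 in 15lox/15lox and 7.09, 6.99 and 8.13 in 15lox/1638N, against means of 6.42 in 15lox/1572T and 6.24 in wild type. The difference of 2.80 ± 0.27 was 6.95-fold (adjusted p = 0.0163), and a further probe set of Nrep, 1436736_x_at, differed by 2.54. Nrep lies close to Apc: in the RefSeq gene order of assembly GRCm38.p6, the nearest measured genes on that side of Apc are Epb41l4a, Nrep, Stard4 and Camk4. The genes between and beside them did not follow it. Stard4, which transports cholesterol, differed by -0.01 ± 0.09, and Srp19, the next measured gene on the other side, by -0.05 ± 0.08. Epb41l4a, a band 4.1 family member, differed by -0.63 with overlapping arrays (adjusted p = 0.624). Camk4, a calcium-dependent kinase prominent in T cells, was lower on all arrays, at 7.11, 7.51 and 6.51 against 8.56, 9.02 and 8.49. Its difference of -1.65 ± 0.27 missed the threshold (adjusted p = 0.0676), and the mean of its 5 probe sets differed by -0.27 (adjusted p = 0.603). In the reference groups Camk4 averaged 7.08 in 15lox/1572T and 6.76 in wild type, and the 15lox/1638N mean of 8.69 was the one apart from both.

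**Figure D5:**
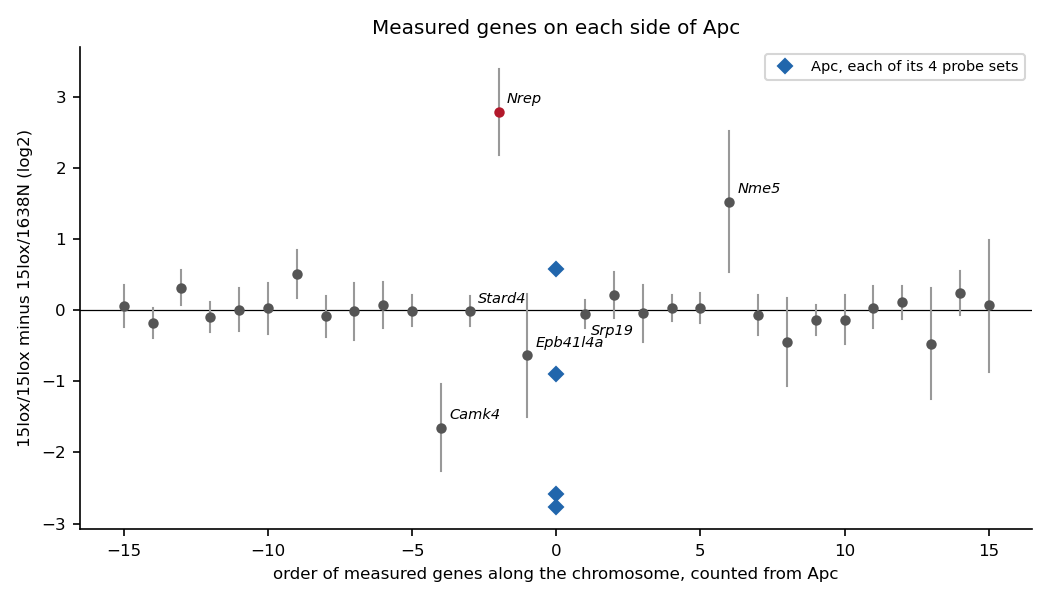
Difference 15lox/15lox minus 15lox/1638N (log2, vertical) with its 95% interval for the 15 measured genes on each side of Apc, in chromosomal order (horizontal), and the 4 probe sets of Apc as diamonds. Nrep (2.80, red) and Camk4 (-1.65) lie on the same side of Apc with Stard4 (-0.01) between them, and the diamonds run from -2.77 to 0.59.

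The fetuins Ahsg and Fetub, plasma proteins made by the liver whose genes are adjacent in the RefSeq order, were both much higher with full Apc loss. Ahsg was almost the same on the 3 arrays of 15lox/15lox (12.20, 12.24 and 12.21) and spread widely in 15lox/1638N (8.79, 9.35 and 10.67). Both sets were above 15lox/1572T (6.13) and wild type (6.03), and the difference was 2.61 ± 0.39, or 6.11-fold (adjusted p = 0.0430). Fetub read 6.45, 8.01 and 7.74 against 4.56, 4.76 and 4.91. Here 15lox/1638N lay near the wild-type mean of 4.44 and at floor levels, and the difference of 2.66 ± 0.33 (adjusted p = 0.0292) may understate the change. They were the 2 called members of 22 measured liver and epithelial genes, whose median was -0.03, with 0.209% of all genes called. Without overlap 3 of the 22 (13.6%) were higher and 2 (9.09%), Afp and Apoh, lower, against 7.26% and 7.67% of all genes. Alb, which defines hepatocytes, was at 5.32 to 5.58 on all 6 arrays. The other pair of called genes adjacent in the order was Ltb4r1 and Adcy4.

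Genes best known from muscle made up a further pair. Unc45b, a chaperone of muscle myosin, was at 8.87, 8.22 and 8.49 in 15lox/15lox and 5.23, 5.35 and 6.85 in 15lox/1638N, 6.58-fold apart (2.72 ± 0.38, adjusted p = 0.0399). Actn2, the alpha-actinin of the muscle Z-disc, read 8.04, 7.47 and 8.22 against 5.32, 5.23 and 6.23 (2.32 ± 0.27, adjusted p = 0.0242). In both, array 3 of 15lox/1638N was the highest of its group and still below every 15lox/15lox array. Mean levels in wild type were 4.74 for Unc45b and 5.57 for Actn2.

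Several transcription factors were in the list. Tfcp2l1, a factor of pluripotent stem cells and of kidney epithelium, was at 9.24, 9.25 and 9.65 with full loss and at 6.66, 6.13 and 7.52 in 15lox/1638N, with 5.21 and 5.28 in 15lox/1572T and wild type. It was 6.10-fold higher (2.61 ± 0.29, adjusted p = 0.0242). Plagl1, an imprinted zinc finger factor that restrains growth, had 6.78, 7.13 and 7.31 against 5.08, 5.10 and 5.40. The levels of Plagl1 in 15lox/1638N were close to the means of wild type (5.10) and 15lox/1572T (5.34), and the difference was 1.88 ± 0.22 (adjusted p = 0.0242). Smaller differences were called for the mineralocorticoid receptor Nr3c2 (1.08, adjusted p = 0.0355), the limb factor Tbx4 (1.27, adjusted p = 0.0430) and the zinc finger gene Zkscan16 (1.20, adjusted p = 0.0430). Of 31 core haematopoietic transcription factors 0 were called (median -0.01), near the 0.209% of all genes and no result about the list. Without overlap 4 of them (12.9%) were higher, against 7.26% of all genes. Lower without overlap were 6 (19.4%, against 7.67%), namely Gata2, Fli1, Myb, Cebpb, E2f1 and Tcf3. Irf4, a factor of lymphoid and dendritic cells, came closest to the threshold, with 12.30, 12.23 and 12.29 against 10.20, 9.72 and 11.03. It was higher on all arrays by 1.96 ± 0.38 without passing (adjusted p = 0.136), and passed without array 3 of 15lox/1638N (2.31, adjusted p = 0.0392). The mean of all probe sets of Irf4 differed by 1.15.

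Cd83, a surface marker of mature dendritic cells, was the called member among 22 genes of dendritic cells and MHC class II, with 0.209% of all genes called. It read 10.64, 11.13 and 10.82 in 15lox/15lox and 8.29, 8.89 and 9.57 in 15lox/1638N, both above 15lox/1572T (6.26) and wild type (5.89). Its difference was 1.95 ± 0.29, or 3.85-fold (adjusted p = 0.0430). Of the 22, 19 differed upward (16 without 15lox/15lox array 3), with a median of 0.24, which was 0.10 without 15lox/1638N array 2 and 0.37 without 15lox/15lox array 2. The mean level of the list was 8.94 to 9.47 on the 15lox/15lox arrays and 8.36 to 8.96 on the 15lox/1638N arrays. The class II chain gene H2-Ab1 differed by 0.84 with overlapping arrays (adjusted p = 0.559), and the invariant chain gene Cd74 by 1.12 (adjusted p = 0.594). The part of dendritic cells in the level of Cd83 was not tested, and in these bulk samples fewer cells of a type cannot be told apart from less RNA per cell. Ltb4r1, the leukotriene B4 receptor of leukocytes, was also called, at 11.96, 11.59 and 11.90 against 10.28, 10.36 and 10.85 (1.32 ± 0.20, adjusted p = 0.0430).

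Gadd45g, which acts in growth arrest and the response to DNA damage, was higher with full loss on all arrays. It was at 10.96 to 11.05 on the arrays with full loss and at 8.86, 8.78 and 9.81 in 15lox/1638N. The mean of 9.15 there was close to 9.22 in 15lox/1572T and within the 8.47 to 9.48 of wild-type arrays 4 to 6. The difference was 3.62-fold (1.86 ± 0.25, adjusted p = 0.0355). It was the called member of 23 CDK inhibitor and quiescence genes, with 0.209% of all genes called. Of the 23, 17 differed upward with a median of 0.17 (0.10 without 15lox/15lox array 1, 0.27 without 15lox/1638N array 3). Genes of the cell cycle machinery held no called member among 35 for DNA replication and G1/S and 34 for mitosis. That is near the 0.209% of all genes called and is no result about these lists. Ccne2, the G1/S cyclin, was the closest of the DNA replication and G1/S genes, at 9.23, 9.36 and 8.99 against 10.29, 10.13 and 9.49 (-0.78 ± 0.21, adjusted p = 0.343). It passed without array 3 of 15lox/1638N (-1.02, adjusted p = 0.0432), but with no other single array left out (limma adjusted p up to 0.958).

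Further called genes encode membrane and secreted proteins. Atp13a4, a P5-type transport ATPase, read 7.48, 8.10 and 7.83 against 5.34, 5.22 and 6.03 (2.27 ± 0.22, adjusted p = 0.0163). Gpr155, a membrane protein of the lysosome, had 9.11, 8.78 and 8.93 against 6.85, 6.69 and 7.03, a 4.24-fold difference (2.08 ± 0.25, adjusted p = 0.0250). The replicates of Gpr155 were tight in both groups, and the 15lox/1638N mean of 6.86 was near those of 15lox/1572T (6.53) and wild type (6.63).

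Frem2, a basement membrane protein, was at 6.38, 7.73 and 6.38 with full loss and at 4.25, 4.46 and 4.41 in 15lox/1638N, a level at which transcript cannot be told from none. Its difference of 2.46 ± 0.31 (adjusted p = 0.0292) may therefore be a lower bound. The secreted serine protease Prss23 read 8.23, 7.73 and 7.83 against 5.72, 5.79 and 6.72 (1.85 ± 0.25, adjusted p = 0.0355). Another probe set of Prss23, 1437671_x_at, differed by 3.24, the largest difference among the 22 called probe sets. The values of Prss23 on 15lox/1638N array 3 were again the highest of that group.

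The other 13 genes called higher differed by 0.72 to 1.59. Xkrx, of the XK family of membrane proteins, was at 11.47, 11.18 and 11.27 against 9.44, 9.33 and 10.37. Cpb1, a carboxypeptidase, read 5.73, 5.71 and 5.53 against 4.33, 4.63 and 4.57. The formin Fmn1, the Rab27 effector Sytl2, the adenylate cyclase Adcy4, the deubiquitinase Mindy1, the ubiquitin ligase Rnf144b, the secreted proteins Ndnf and Thsd4, Elfn1, Bend5 and 4930556M19Rik were all higher without overlap. Cpb1 had an adjusted p of 0.0163, as low as that of Nrep, at a difference of 1.15, and Xkrx of 0.0496, the highest of the list. Cabyr, a calcium-binding protein of the sperm tail, differed in its pattern. It read 8.12, 7.96 and 7.88 with full loss and 6.70, 6.82 and 6.66 in 15lox/1638N, while the reference means of 7.28 and 7.42 lay between the 2 genotypes. Its difference of 1.26 ± 0.18 (adjusted p = 0.0399) thus spans levels above and below wild type. That held only on the probe set standing for the gene. On another probe set of Cabyr, 15lox/1638N read 6.36, 6.12 and 6.44 against 6.31, 6.47 and 6.53 on wild-type arrays 4 to 6. On the last, 15lox/1638N read 5.57, 5.77 and 5.94 against 5.64, 5.83 and 5.52. On both of these 15lox/1638N overlapped wild type.

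The 2 genes lower in 15lox/15lox were Ms4a3 and Pla2g4c. Ms4a3, a membrane protein of granulocyte and monocyte progenitors, read 12.16, 12.31 and 12.04 against 12.95, 13.14 and 12.92, 1.78-fold lower (-0.83 ± 0.11, adjusted p = 0.0355). The 15lox/15lox level was close to the wild-type mean of 12.21, while 15lox/1572T averaged 12.84. It was the called member of 25 granule protease and neutrophil genes, whose median was -0.03, with 0.209% of all genes called. Pla2g4c, a cytosolic phospholipase A2, had 6.72, 6.76 and 6.38 against 7.69, 7.50 and 7.33 (-0.89 ± 0.13, adjusted p = 0.0430), with 6.69 and 6.30 in 15lox/1572T and wild type. In both genes 15lox/1638N had the highest mean of the 4 groups. Cd14, the lipopolysaccharide co-receptor of monocytes, was lower without passing, at 9.41, 8.66 and 9.02 against 10.37, 10.11 and 9.95 (-1.12 ± 0.20, adjusted p = 0.0878).

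Pathways and lineages without a called member are given by the gene of lowest p. With 0.209% of all genes called, a count of 0 is near that share and is no result about them. In the BMP and TGF-beta list (34 measured, median 0.06, 10 or 29.4% higher without overlap, against 7.26% of all genes) it was Bmp4, a ligand. Bmp4 read 8.87, 9.75 and 9.29 against 6.02, 6.65 and 8.14, a 5.15-fold difference of 2.36 ± 0.48 that missed the threshold (adjusted p = 0.148). Its spread in 15lox/1638N was wide, and without array 3 of that genotype it passed, with a difference of 2.97 (adjusted p = 0.00829). With any other single array left out it did not pass (limma adjusted p up to 0.611). Among 34 long-term stem cell genes (median 0.21, or 0.12 without 15lox/1638N array 2, with 25 differing upward) Eya1, a transcriptional coactivator, differed by 1.01 ± 0.18 (adjusted p = 0.0853), and by 0.59 as the mean of its probe sets. Notch1 was closest among 20 Notch genes, at 0.59 ± 0.15 (adjusted p = 0.296).

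Lymphoid genes gave wide ranges. Il7r, the interleukin 7 receptor, was at 12.50, 11.89 and 12.64 with full loss and at 9.91, 10.17 and 11.67 in 15lox/1638N (1.76 ± 0.40, adjusted p = 0.208). Pou2af1, a B cell coactivator, had 6.71, 6.11 and 6.59 against 4.33, 4.29 and 5.80 (1.66 ± 0.36, adjusted p = 0.180). Of 17 early lymphoid, 20 B lineage and 27 T lineage genes 0 were called, near the 0.209% of all genes and no result about these lists. In both Il7r and Pou2af1, array 3 of 15lox/1638N was the highest of its group. Without that array Il7r and Pou2af1 both passed, with differences of 2.30 and 2.16 (adjusted p = 0.00400 and 0.00282). Neither passed with any other single array left out (limma adjusted p up to 0.772 and 0.686). Array 3 is also the only female-type array of 15lox/1638N.

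Other probe sets of the called genes do not all repeat the difference. Of 17 called genes with over 1 probe set, 7 had another that differed by at least 0.5 the same way, namely Cabyr, Fasl, Fmn1, Mindy1, Nkd1, Nrep and Prss23. The other 10 were Atp13a4, Edar, Ndnf, Pla2g4c, Plagl1, Rnf144b, Tbx4, Tfcp2l1, Thsd4 and Tnfrsf19. Their 14 other probe sets differed by -0.28 to 0.35 and averaged 3.63 to 6.91 in 15lox/15lox. As the mean of all its probe sets Edar differed by 1.00 (adjusted p = 0.0546), Tfcp2l1 by 0.79 (adjusted p = 0.0735), Tnfrsf19 by 0.61 (adjusted p = 0.138) and Plagl1 by 0.53 (adjusted p = 0.363), none of which passed.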

How the data were processed

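Expression was read on arrays, 1 a sample, from RNA amplified with Nugen Ovation V2 per the labels' protocols. By their range, the authors deposited log2 values, 1 per probe set and array; the submitters' processing notes name RMA and mm9 with no version or role. Of 45101 probe sets, 34958 had 1 gene symbol, and that of highest mean over the 15 arrays stood for each of 18194 genes. No level filter or further normalization was applied. limma 3.58.1 in R 4.3.3 (lmFit, eBayes) was fitted to the 9 mutant arrays, with 6 residual degrees of freedom, for the two-sided contrast 15lox/15lox minus 15lox/1638N, with Benjamini-Hochberg adjustment over all genes or all probe sets and a threshold of 0.05. The method was tested on simulated data.

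Lists of genes were described by counts and medians, with no set test. The members and lists were chosen with earlier results of these data known. Named were the 15 highest and 15 lowest called genes without overlap (placeholder and sex-linked symbols left out), Apc, Ctnnb1, Axin2, Lef1, Tcf7 (not analysed here), Nkd1, Ccnd1 and Myc, and from each list up to 4 called members or, failing any, that of lowest p. The further called genes, the neighbours of Apc and members such as Notum, Dkk1, Apcdd1, Rnf43, Sp5, Fas, H2-Ab1 and Cd74 were named after their values were seen. Replicate numbers are not said to pair samples. Alternatives covered the arrays fitted, level filters, normalization, eBayes options, array weights, sex, the replicate block, probe set choice, thresholds and each array left out.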

Additional observations from a re-analysis of the deposited data

How the results depend on the processing

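The direction of the 38 called genes was the same in every fit in which they were tested. Where a fit only left out or added arrays, the lack of overlap fixed this in advance. The number called did change. It was 38 (36 higher, 2 lower) as reported, 2 (2 and 0) with the 6 arrays alone, 76 (71 and 5) with wild-type arrays 4 to 6 added, and 172 (153 and 19) with all 15 arrays, whose wild-type spread looks understated. A mean level of at least 8 left 2 (2 and 0), array weights gave 102 (95 and 7), sex as a covariate 11 (11 and 0) and an adjusted p under 0.01 left 0 (0 and 0), where 1617 genes had an unadjusted p under 0.05; a 2-fold minimum left 0 lower genes. Leaving out each array in turn gave 0 to 76 called (0 to 71 higher, 0 to 5 lower); in the 3 fits with 0 calls 834 to 1498 genes had an unadjusted p under 0.05. Lists with a called member numbered 7, 18 with all 15 arrays and 0 to 14 with an array left out, and Apc probe sets called 2, or 1 to 2. Apc reversed to -1.42 as the mean of its probe sets and -2.77 with that of highest variance. Ctnnb1 reversed to -0.01 with array weights, and ran from -0.01 to 0.14 with an array left out. Lef1 ran from -0.33 to 0.51, below 0 without 15lox/15lox array 1 or 2 (-0.33 and -0.12) or 15lox/1638N array 1 or 2 (-0.15 for each). The cause of these changes was not tested, apart from the number of arrays and genes that a setting removes or adds.

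With the replicate number as a block 39 genes were called (37 higher, 2 lower), of which 24 were shared with the 38. Same-numbered arrays of the 2 genotypes correlated in their deviations at -0.13, 0.33 and 0.43, and 2 of 3 correlated best with their own number, so the numbers were not taken to pair samples.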

Other observations

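Some gene groups leaned one way without a called member, which is no result in itself with 0.209% of all genes called. Of 33 measured interferon response genes 28 differed upward in 15lox/15lox (median 0.26, or 0.10 without array 2 of 15lox/1638N and 0.40 without array 2 of 15lox/15lox), led by Mx1, an antiviral GTPase, at 8.86, 8.47 and 9.03 against 7.50, 6.71 and 8.01 (1.38 ± 0.30, limma adjusted p = 0.187). All 24 glycolysis genes differed upward (median 0.14, or 0.08 without array 1 and 0.22 without array 3 of 15lox/1638N), and 21 did without array 3 of 15lox/15lox; their mean level was 12.36 to 12.55 on the 15lox/15lox arrays and 12.12 to 12.52 on the 15lox/1638N arrays. Of 30 ribosome biogenesis genes 29 differed downward (median -0.17, or -0.26 without array 2 of 15lox/15lox and -0.11 without array 2 of 15lox/1638N), and of 35 genes of DNA replication and G1/S 29 did (median -0.19, or -0.29 without array 2 and -0.09 without array 3 of 15lox/15lox). The median over all genes was -0.01. The part of single arrays beyond those values was not tested.

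The largest difference of all, 3.84 for Slc15a2, a peptide transporter, was not called: its arrays read 11.81, 9.67 and 10.59 against 5.39, 9.85 and 5.31, so that array 2 of 15lox/1638N lay within the range of 15lox/15lox (adjusted p = 0.559). Slc15a2 was chosen after its values were seen. Probe set 1456968_at, which is unnamed here, was called over all probe sets, at 6.57, 6.48 and 6.24 against 4.56, 4.67 and 4.95 (1.70 ± 0.19, limma adjusted p = 0.0350).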
